A study of Rattus norvegicus with 90 samples.

Results

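Liver transcripts were compared between fetuses whose dams were given 30 mg/kg/d of NBP2 (Nafion byproduct 2, a polyfluorinated ether sulfonic acid) and fetuses of control dams, at gestation day (GD) 21. The libraries were chosen by their labels: fetal, GD21 and dose 30 (3 libraries, fetuses of dams 2141, 2142 and 2143) or dose 0 (3 libraries, fetuses of dams 2129, 2130 and 2131), which makes 6 of the 90 libraries of the study. All animals were Sprague-Dawley rats of the supplier's CD line, about 90 days old as dams, dosed orally from GD17 on, and all 6 libraries belong to study block 144. The titles call the age GD21, while the age entry says GD20. Whether a library came from 1 fetus or from several of a litter is not stated, and each of the 6 came from a different dam. TempO-Seq, the assay, joins pairs of detector probes that sit side by side on a transcript and counts the joined product. A value therefore reports the short stretch under the probes and not the whole transcript. The most abundant transcripts were attenuated in the assay, to the same degree in every library, so levels were compared between libraries and not between genes.

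PPAR-alpha is a nuclear receptor that fatty acids and many fluorinated acids activate. In rodent liver it pairs with RXR on direct repeats of AGGTCA-like sequences spaced by a single base, and its targets carry fatty acids in the cytosol, split acyl-CoAs, and oxidise fatty acids in peroxisomes and mitochondria. Around birth the rat liver still makes blood cells, while its hepatocytes take on oxidation of fat and the supply of glucose.

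The 6 libraries had 5666947 to 6998829 counts in total and expressed the liver genes Alb (1579 to 3998 CPM, counts scaled to a library total of 1e6), Apoa1 (4972 to 9637 CPM) and Afp, the fetal albumin relative (9572 to 24594 CPM). Control 2129 stood apart, with 17789 genes detected against 13349 to 13704 in the other 5, and 376 CPM of chemosensory receptor transcripts against 18.0 to 29.3 CPM. The fetus of dam 2141 and control 2131 stood apart in the ways described with the gene groups below. Results are given with and without these libraries where a call of the main test depended on them.

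Of 20833 genes in the deposited table, 10244 passed the filter on low counts, and 3 of them rose past an adjusted p of 0.05 (edgeR's quasi-likelihood test, Benjamini-Hochberg), which is 0.0293% of the genes tested. None fell. The 3 genes were Fabp1, Acot1 and Ehhadh, all of them known PPAR-alpha targets. At an unadjusted p under 0.05 there were 210 genes, 91 higher and 119 lower. The 250 bases before the start of each of the 3 genes are shown because the genes moved together and the known site of the receptor can be looked for in them. They are from RefSeq on the build GRCr8, plus strand, and capitals mark the only match to AGGNCANAGGNCA on either strand.
Fabp1, chr4:104749090-104749339: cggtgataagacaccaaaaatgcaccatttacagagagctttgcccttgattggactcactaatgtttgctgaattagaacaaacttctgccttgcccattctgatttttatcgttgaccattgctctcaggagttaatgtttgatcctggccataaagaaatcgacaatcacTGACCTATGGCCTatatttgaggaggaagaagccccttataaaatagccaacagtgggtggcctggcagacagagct
Acot1, chr6:109367024-109367273: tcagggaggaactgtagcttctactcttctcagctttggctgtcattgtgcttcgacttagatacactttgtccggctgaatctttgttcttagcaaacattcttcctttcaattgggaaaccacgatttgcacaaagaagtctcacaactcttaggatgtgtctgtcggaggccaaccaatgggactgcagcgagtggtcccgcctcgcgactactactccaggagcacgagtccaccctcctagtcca
Ehhadh, chr11:92746159-92746408: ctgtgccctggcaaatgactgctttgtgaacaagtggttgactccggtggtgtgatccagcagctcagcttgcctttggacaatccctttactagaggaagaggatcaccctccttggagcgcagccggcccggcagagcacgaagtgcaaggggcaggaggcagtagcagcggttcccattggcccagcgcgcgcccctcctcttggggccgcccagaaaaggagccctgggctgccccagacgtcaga
The match before Fabp1 lies on the minus strand, 77 bases before the start, and reads TGACCTATGGCCT on the strand printed. The same pattern occurs in 123 of 33469 such windows (0.368%). The windows of Acot1 and Ehhadh hold no match to it. Of the 23 PPAR-alpha target genes tested that had a window, 1 had a match, which was Fabp1. Among the 31 genes named in this report that had a window, 2 had a match. The other was Gys2, which was not called by either tool, with its match 80 bases before the start. These are matches of letters, and binding was not measured.

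Fabp1 encodes the liver fatty acid binding protein, the main carrier of long-chain fatty acids in hepatocyte cytosol. On rn6 the file places it on chromosome 4 from 99063181 to 99066955. Control fetuses had 209, 263 and 352 CPM, in the order of dams 2129, 2130 and 2131. Treated fetuses had 1230 (dam 2141), 3044 (dam 2142) and 2607 (dam 2143) CPM. All treated libraries lay above all controls, and the log2 fold change was 3.07 ± 0.37 (SE), with an adjusted p of 0.00325.

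Acot1 encodes a cytosolic thioesterase that frees fatty acids from long-chain acyl-CoA, and lies on chromosome 6 from 107485249 to 107493799. It was low in controls, at 2.24, 1.57 and 2.39 CPM, and reached 21.3, 184 and 134 CPM in the treated fetuses. The log2 fold change was 5.78 ± 0.72, with an adjusted p of 0.00325. Ehhadh, the peroxisomal bifunctional enzyme that catalyses the middle steps of beta-oxidation there, lies on chromosome 11 from 82945104 to 82978365. It went from 13.4, 16 and 8.36 CPM to 50.0, 221 and 374 CPM, a log2 fold change of 4.11 ± 0.56 with an adjusted p of 0.00667. For both genes the fetus of dam 2141 was far below the other treated fetuses and still above every control.

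The 3 calls rested on the other dose groups for the estimate of the spread. With the 6 libraries fitted alone no gene was called (adjusted p 0.405 for Fabp1 and Acot1, 0.824 for Ehhadh), and none was without control 2129 (0.0519, 0.0519 and 0.0853) or without control 2130 (0.0574 for each). The log2 fold changes moved little in these fits, from 2.92 to 3.08 for Fabp1, 5.63 to 5.85 for Acot1 and 4.11 to 4.35 for Ehhadh.

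**Figure D1:**
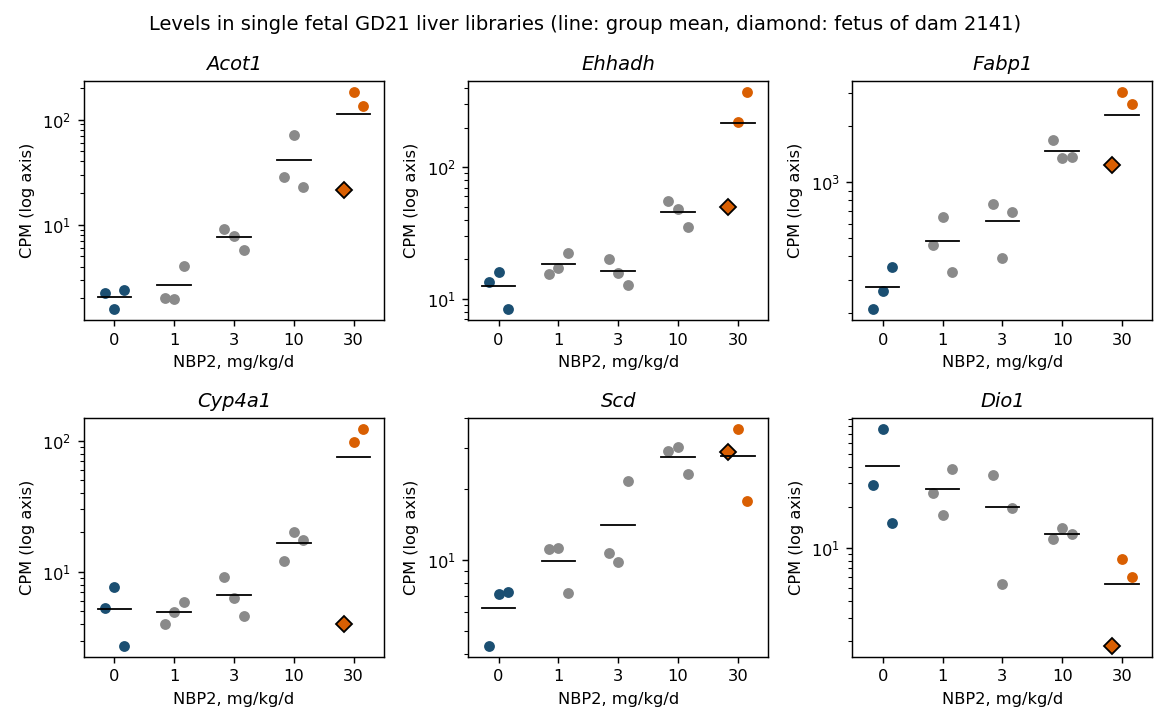
Levels of 6 genes in each of the 15 fetal GD21 liver libraries (CPM, log axis) against the dose given to the dam, with group means as lines and the fetus of dam 2141 as a diamond. Fabp1, Acot1 and Ehhadh lie above all controls in every library at 30 mg/kg/d, while Cyp4a1 in the fetus of dam 2141 (4.01 CPM) lies among the controls.

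DESeq2 called 26 of the 8042 genes for which it gave an adjusted p (0.323%), 20 higher (0.249%) and 6 lower (0.0746%), and these include the 3 genes above. Among the others are several of the same pathway. Cyp4a1, a fatty acid omega-hydroxylase, had 5.28, 7.72 and 2.73 CPM in controls against 4.01, 98.6 and 124 CPM, so the groups overlapped through the fetus of dam 2141. Its log2 fold change was 3.85 ± 0.80 (edgeR adjusted p 0.185, DESeq2 adjusted p 0.000121).

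Cyp4a2 and Cyp4a3, near copies of the same family, had edgeR log2 fold changes of 2.32 ± 0.43 and 2.37 ± 0.44 (adjusted p 0.0911 for both). The estimated counts of this pair were split between the copies in a ratio of 0.607 to 0.72 in all 15 libraries, so the values of the 2 copies cannot be taken as separate measurements. Adtrp, which hydrolyses fatty acid esters of hydroxy fatty acids, had 112 to 153 CPM in controls and 247, 431 and 433 CPM in treated fetuses (1.47 ± 0.27, edgeR adjusted p 0.0911). Acot2, the mitochondrial thioesterase beside Acot1 on chromosome 6, had 5.58 to 8.01 CPM against 10.3, 51.2 and 52.7 CPM (2.55 ± 0.54, edgeR adjusted p 0.185). Crat, which moves acetyl groups between CoA and carnitine, had 14.7 to 29.9 CPM against 46.0, 107 and 80.6 CPM (1.73 ± 0.34, edgeR adjusted p 0.115). Over the 15 libraries 40% of the estimated counts of Acot2 were not whole, as were 33.3% for Crat and 20% for Adtrp. Some reads of these genes may therefore have been divided with other genes.

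Of the 33 genes of the PPAR-alpha lipid target list that are in the file, 30 were tested. The 3 called genes all belong to it and none of the other 27 passed in edgeR, while DESeq2 called 9 of the 30 higher and none lower. All 3 treated libraries lay above all 3 controls for 9 of the 30 (30.0%), against 218 of all 10244 genes (2.13%), and below them for none, against 354 (3.46%). These counts take near copies such as Cyp4a2 and Cyp4a3 as separate genes, although their values are not separate measurements. The median log2 fold change was 0.92 and 26 of 30 were positive, against a median of 0.017 over all genes tested. With 1 library left out that median ran from 0.66 (without the fetus of dam 2143) to 1.33 (without that of dam 2141), over the members tested in both fits. Vnn1, a pantetheinase, had 33.7, 80.7 and 75.2 CPM in controls and 36.1, 391 and 486 CPM in treated fetuses. Its groups overlapped (2.30 ± 0.65, edgeR adjusted p 0.96). The largest negative value was that of Cyp4a8, at −1.73 ± 1.11 (edgeR adjusted p 1), with 2.39 to 13.6 CPM in controls and 0.309 to 3.88 CPM in treated fetuses.

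**Figure D2:**
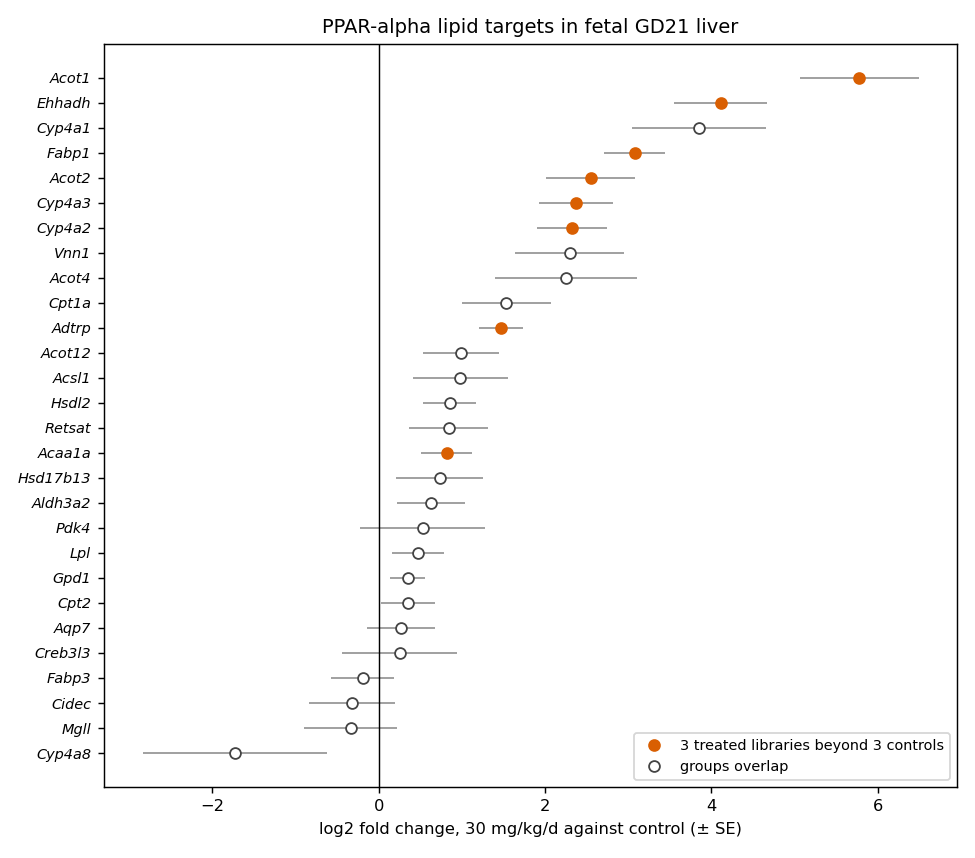
Log2 fold changes (± SE) at 30 mg/kg/d against control for 28 of the 30 tested PPAR-alpha lipid targets in fetal GD21 liver. Filled points mark the 8 genes drawn whose 3 treated libraries all lay beyond the 3 controls. Of the 28 values, 24 are above 0, from 0.25 for Creb3l3 to 5.78 for Acot1.

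Peroxisomal beta-oxidation had 20 tested members, of which Ehhadh rose and 19 were not called by edgeR. Treated libraries lay above all controls for 5 (among them Ehhadh, Acaa1a, Crat and Abcd3) and below them for 1 (Nudt7), where 2.13% and 3.46% of all genes did. The median was 0.41, and 0.65 without control 2130 or 0.82, 0.25 and 0.14 without the fetuses of dams 2141, 2142 and 2143 (each over the members tested in both fits, here and below). Acaa1a, the thiolase of the last step, had 69.9 to 104 CPM in controls and 107, 140 and 207 CPM in treated fetuses (0.82 ± 0.31, edgeR adjusted p 1). Mitochondrial beta-oxidation had 23 tested members, none called by edgeR and 1 (Acot2) by DESeq2. In that list 22 values were positive, with a median of 0.67 (0.44 without the fetus of dam 2143). Treated libraries lay above all controls for Cpt1b, Hadha and Acot2, 3 of 23 against 2.13% of all genes. Hadha, a subunit of the trifunctional protein, had 359 to 441 CPM in controls against 545, 662 and 750 CPM (0.67 ± 0.21, edgeR adjusted p 1). Cpt1a, the gate for entry of fatty acids into mitochondria, had 3.24 to 6.29 CPM against 4.63, 17.8 and 15.2 CPM (1.53 ± 0.54, edgeR adjusted p 1), with overlap through the fetus of dam 2141.

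Acat1, the acetoacetyl-CoA thiolase that feeds ketone body synthesis, had 638, 928 and 1123 CPM in controls. The fetus of dam 2141 had 939 CPM, within the controls, and the other treated fetuses had 3091 and 3413 CPM (1.49 ± 0.41, edgeR adjusted p 0.859). Of 5 tested ketogenesis genes none was called by either tool, and the list's median was 0.17. It was 0.36 without control 2131 or without the fetus of dam 2141, and −0.005 without the fetus of dam 2143.

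Genes of fat and sterol synthesis were mostly at positive values without a call in edgeR. Scd, stearoyl-CoA desaturase, had 4.32, 7.14 and 7.33 CPM in controls and 28.7, 36.1 and 17.8 CPM in treated fetuses, and here the fetus of dam 2141 was not the lowest of the 3. Its log2 fold change was 2.12 ± 0.37 (edgeR adjusted p 0.0887, DESeq2 adjusted p 4.77e-05). Acaca, which makes malonyl-CoA, had 125 to 152 CPM against 218, 199.9 and 209 CPM (0.59 ± 0.23, edgeR adjusted p 1). In the list of fatty acid and triglyceride synthesis 12 of 15 values were positive (median 0.34, and 0.59 without the fetus of dam 2141) and treated libraries lay above all controls for 3 (Acaca, Scd and Acss2), against 2.13% of all genes. For cholesterol biosynthesis 17 of 19 were positive (median 0.47), with 4 above all controls (Hmgcs1, Lss, Idi1 and Mvk), against 2.13% of all genes. That median was 0.78 without control 2131 and 0.31 without control 2129. Idi1, the isopentenyl diphosphate isomerase, had 23.7 to 45.9 CPM in controls and 49.2 to 55.3 CPM in treated fetuses (0.73 ± 0.30, edgeR adjusted p 1). Fasn was below the filter. Apoa2, an apolipoprotein of HDL, had 910, 743 and 1263 CPM in controls against 2820, 2014 and 2510 CPM (1.34 ± 0.26, edgeR adjusted p 0.115, DESeq2 adjusted p 0.000205).

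Xenobiotic targets of the receptors CAR and PXR gave no call in edgeR among 17 tested, and 6 lay above and 2 below all controls, against 2.13% and 3.46% of all genes. The median was 0.33, with 0.52 without control 2130, 0.17 without control 2131, 0.53 without the fetus of dam 2141 and 0.15 without that of dam 2143. Over all members tested in the fit without control 2131 it was 0.043. Cyp2b1, the usual readout of CAR, had 1.51, 0.78 and 0.776 CPM in controls and 2.7, 55.7 and 36.9 CPM in treated fetuses (4.96 ± 1.10, edgeR adjusted p 0.217, DESeq2 adjusted p 0.000219). None of its estimated counts in the 15 libraries was whole, so reads may have been divided with near copies. Cyp3a23/3a1, the usual readout of PXR, had 0.512 to 3.43 CPM against 21.1, 6.52 and 3.53 CPM, with the fetus of dam 2141 highest (2.23 ± 0.83, edgeR adjusted p 1). Ephx1, the microsomal epoxide hydrolase, had 46.2 to 56.6 CPM against 58.6 to 67.3 CPM (0.28 ± 0.23, edgeR adjusted p 1). Gsta2, a glutathione S-transferase, lay below all controls, with 62.2, 95.3 and 80.4 CPM in controls and 31.2, 26.9 and 24.6 CPM in treated fetuses (−1.53 ± 0.50, edgeR adjusted p 1). Cyp7a1, the rate-limiting enzyme of bile acid synthesis, was below the filter.

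Glucose genes had values in both directions, and none was called by edgeR. Ppp1r3g, Ppp1r3b and Ppp1r3c encode subunits that bring protein phosphatase 1 to glycogen. Ppp1r3g had 8.79, 12.0 and 7.84 CPM in controls and 13.9, 83.8 and 134 CPM in treated fetuses (3.04 ± 0.60, edgeR adjusted p 0.115, DESeq2 adjusted p 0.000128). Ppp1r3b had 43.3, 68.9 and 20.3 CPM against 14.5, 16.4 and 15.7 CPM (−1.53 ± 0.40, edgeR adjusted p 0.66), and Ppp1r3c 68.6 to 122 CPM against 31.6 to 64.8 CPM (−0.89 ± 0.32, edgeR adjusted p 1). Gys2, the liver glycogen synthase, had 33.9 to 42.5 CPM against 47.7 to 69.0 CPM (0.58 ± 0.24, edgeR adjusted p 1), and Pygl, the glycogen phosphorylase, overlapped between groups at 463 to 876 and 271 to 886 CPM (0.07 ± 0.38). The other members of the 17 tested glycogen genes overlapped too, and the list's median was 0.069, with a range of −0.20 to 0.25 when 1 library was left out. Of the 17, 2 lay above and 2 below all controls, against 2.13% and 3.46% of all genes. Pck1, a gate of gluconeogenesis, had 0.286 to 0.853 CPM in controls, at or near the floor of the assay, and 0.926, 7.16 and 12.4 CPM in treated fetuses (3.66 ± 1.19, edgeR adjusted p 1). G6pc, which releases glucose, overlapped at 0 to 13.3 and 3.24 to 32.6 CPM (1.49 ± 1.00). Igfbp1, a binding protein for insulin-like growth factors, had 269, 422 and 343 CPM in controls and 521, 1097 and 1495 CPM in treated fetuses (1.61 ± 0.35, edgeR adjusted p 0.189, DESeq2 adjusted p 0.00378).

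Lower values were found for several hepatocyte products, named gene by gene. Of the tested acute phase proteins, 1 of 21 (4.76%) lay below all controls, against 3.46% of all genes. So did 2 of 36 complement and coagulation genes (5.56%) and 2 of 20 mature hepatocyte genes (10%). Above all controls lay 0, 0 and 1 of them, against 2.13% of all genes. None in these lists was called by edgeR. The list medians were −0.35, −0.17 and −0.38, and −0.060, 0.056 and −0.15 without the fetus of dam 2141. Dio1, the type 1 deiodinase that converts thyroxine, had 29.4, 76.9 and 15.2 CPM in controls and 1.85, 8.27 and 6.00 CPM in treated fetuses (−2.93 ± 0.68, edgeR adjusted p 0.309, DESeq2 adjusted p 0.00277). Slc39a14, a zinc and iron importer, had 160 to 282 CPM against 103, 125 and 127 CPM (−0.97 ± 0.23, edgeR adjusted p 0.345, DESeq2 adjusted p 0.0108). Lect2, a secreted liver protein, had 138 to 148 CPM against 88.5, 62.5 and 82.6 CPM (−0.87 ± 0.19, edgeR adjusted p 0.189, DESeq2 adjusted p 0.000192). Hp, haptoglobin, had 87.6, 154 and 22.7 CPM against 27.0, 27.7 and 17.6 CPM, with overlap through control 2131 (−1.91 ± 0.48, edgeR adjusted p 0.572, DESeq2 adjusted p 0.032). Without control 2131 edgeR called 7 genes, 4 higher and 3 lower, with Hp (−2.37, adjusted p 0.0146) and Slc39a14 (−1.19, adjusted p 0.0451) among the lower ones. Slco1a1 and Slc10a1, carriers that take up organic anions and bile acids, had 25.4 to 38.7 against 0.617 to 10.3 CPM (−2.29 ± 0.83) and 37.2 to 121 against 19.4 to 37.0 CPM (−1.18 ± 0.39), with edgeR adjusted p of 1 for both. In the bile acid synthesis and transport list 2 of 9 tested genes lay below all controls, against 3.46% of all genes. Its values were positive for 4 and negative for 5, with a median of −0.20. That median was 0.25 without the fetus of dam 2141 and −0.65 without that of dam 2143. In the urea cycle and amino acid breakdown list no gene of 24 was called and treated libraries lay below all controls for 3 (Cps1, Arg1 and Prodh1), against 3.46% of all genes. The list's median was −0.22, with −0.048 and −0.37 without controls 2130 and 2131, and 0.0056 and −0.34 without the fetuses of dams 2141 and 2143. Cps1, the entry enzyme of the urea cycle, had 4.95 to 10.2 CPM in controls and 2.16 to 3.88 CPM in treated fetuses (−1.32 ± 0.44, edgeR adjusted p 1).

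Il1rn, the interleukin-1 receptor antagonist, had 13.7, 15 and 24.4 CPM in controls and 28.4, 52.9 and 85.6 CPM in treated fetuses (1.68 ± 0.36, edgeR adjusted p 0.189, DESeq2 adjusted p 0.00594). Rab30, a small GTPase of the Golgi, overlapped, with 9.59 to 23.9 CPM against 14.0, 119 and 187 CPM (2.52 ± 0.66, edgeR adjusted p 0.641, DESeq2 adjusted p 0.0232). AABR07067023.1, an unnamed gene, had 74.5 to 101 CPM against 40.7 to 64.1 CPM (−0.91 ± 0.23, edgeR adjusted p 0.539, DESeq2 adjusted p 0.0385). LOC103690108 had 3.68, 47.6 and 3.41 CPM against 0.882 to 2.01 CPM, with its control mean set by control 2130 (−3.85 ± 1.09, edgeR adjusted p 0.96, DESeq2 adjusted p 0.0143). Of the chosen genes not described so far, Acadm, Lpl, Hsd17b13, Pdk4, Cyp2b2, Alas2 and Slc4a1 were not called by either tool. Their groups overlapped, with edgeR log2 fold changes from 0.039 for Slc4a1 to 1.62 for Cyp2b2.

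The fetus of dam 2141 stood apart from the other treated fetuses in whole groups of genes. As the median log2 ratio of its CPM (plus 0.5) to the control mean, the PPAR-alpha targets were at −0.14 in that fetus, against 1.31 and 1.39 in the fetuses of dams 2142 and 2143. Only 10 of the 30 lay above all controls there and 7 lay below, against 23 above and 1 below, and 24 above and 1 below. These counts compare the treated fetuses with each other only, as the share of all genes tested is not given beside them. Mature hepatocyte genes were at −0.97, against −0.26 and −0.12. Acute phase proteins were at −1.27, against −0.14 and −0.045. Glycogen genes were at −0.82, against 0.20 and 0.22. In the opposite direction, cell cycle genes were at 0.72, against −0.0085 and −0.097, and erythroid markers other than haemoglobin at 0.65, against −0.25 and −0.18. Over all genes tested the 3 medians were 0.028, −0.0087 and −0.12. Control 2131 differed from the other controls in some of the same groups. On that scale its mature hepatocyte genes were at −0.41, against −0.0034 and 0.33 in controls 2129 and 2130, and its acute phase proteins at −0.51, against −0.095 and 0.22. Both values lay below those of the fetuses of dams 2142 and 2143. Its cholesterol genes were at 0.54, against −0.40 and −0.19.

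**Figure D3:**
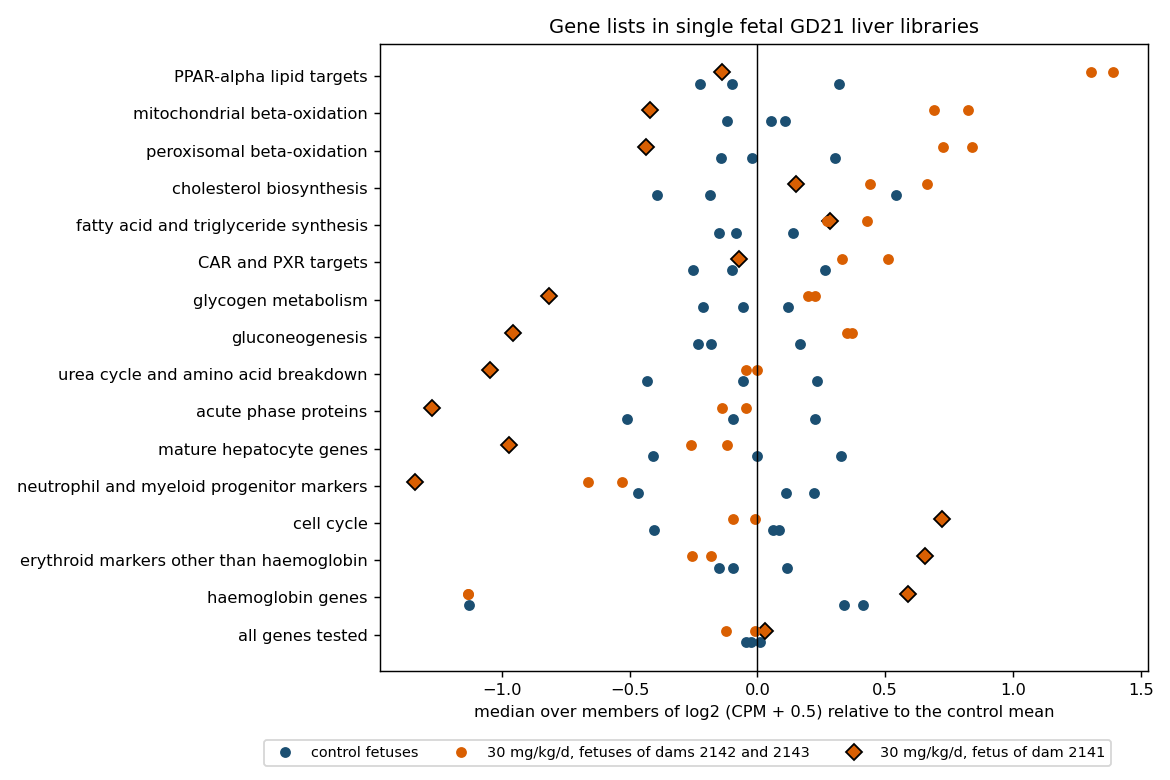
Medians over the members of 15 gene lists, and over all genes tested, of log2 (CPM + 0.5) relative to the control mean, for each control (blue) and treated (orange) fetal library. The fetus of dam 2141 (diamond) lies below the other treated fetuses for PPAR-alpha targets (−0.14) and mature hepatocyte genes (−0.97), and above them for cell cycle genes (0.72).

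Without the fetus of dam 2141 edgeR called 20 genes, all higher, and all 3 of the calls above were among them. That fit left the fetuses of dams 2142 and 2143 as the only libraries at 30 mg/kg/d. Both had Y-linked transcripts (458 and 422 CPM), which among the controls only 2129 had at such a level (339 CPM). Their haemoglobin shares were 5.53% and 5.47%, against 18.2%, 14.7% and 4.30% in controls. The part of sex and haemoglobin share in the calls of that fit was not tested. Among the added calls were Cyp4a1 (log2 fold change 4.41, adjusted p 5.74e-05), Cyp4a2 (2.75, 0.000107), Cyp4a3 (2.80, 0.000198), Ppp1r3g (3.54, 0.000202), Acot2 (3.00, 0.00233), Adtrp (1.71, 0.00392) and Crat (2.02, 0.00779). Vnn1 (2.83, 0.00506), Igfbp1 (1.94, 0.00506), Rab30 (3.05, 0.00473), Il1rn (2.02, 0.00747) and Cyp2b1 (5.51, 0.0144) were called as well. Acat1, Chrna2 and Zbed5, named here after their values were seen, were also among the 20. The medians without that fetus were 1.33 for PPAR-alpha targets, 0.85 for mitochondrial and 0.82 for peroxisomal beta-oxidation. With all libraries they were 0.92, 0.67 and 0.41, and without the fetus of dam 2143 they were 0.66, 0.44 and 0.14. The median for cell cycle genes was 0.31 with it, with 26 of 29 positive, −0.081 without it, and 0.15 without control 2130.

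Y-linked transcripts separated the libraries in another way. They took 458 and 422 CPM in the fetuses of dams 2142 and 2143 and 339 CPM in control 2129, but 0.154 CPM in the fetus of dam 2141 and at most 1.88 CPM in the other 2 controls. The part of fetal sex in the difference between the treated fetuses was not tested. With sex from these counts as a covariate the same 3 genes were called, with adjusted p of 0.0234 for Fabp1 and Acot1 and 0.0429 for Ehhadh.

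Haemoglobin genes took 18.2%, 14.7% and 4.30% of the counts in controls 2129, 2130 and 2131, and 16.7%, 5.53% and 5.47% in the fetuses of dams 2141, 2142 and 2143. The means were 12.4% ± 7.22 (SD, n = 3) in controls and 9.24% ± 6.48 (SD, n = 3) in treated fetuses. The difference of −3.15 percentage points lay within the spread between libraries (two-sided exact permutation test, p = 0.7; the smallest p that 3 against 3 can give is 0.1). At 1, 3 and 10 mg/kg/d the share was 12.0% to 19.9% in all 9 libraries, so the 3 lowest shares of the 15 libraries were in 1 control and 2 treated fetuses. Among controls the library with the highest haemoglobin share also had the highest summed level of the other erythroid markers. The same held among the fetuses of dams 2141, 2142 and 2143 and at 10 mg/kg/d. At 1 and 3 mg/kg/d another library had the highest summed level of these markers. Control 2131, with the lowest haemoglobin share of the 6, had 12864 CPM of these markers, between the 12237 and 14942 CPM of the other controls. Among treated fetuses the sums were 20014, 10789 and 12973 CPM, where the sum in the fetus of dam 2142 was the lowest of all 15 libraries (difference from controls 1245 CPM, exact permutation p = 0.8). Alas2, the erythroid enzyme that starts heme synthesis, was at 291 to 381 CPM in controls and 354 to 369 CPM in treated fetuses. With haemoglobin share as a covariate Fabp1 (2.82, adjusted p 0.00146) and Acot1 (5.35, adjusted p 0.0229) were still called and Ehhadh was not (3.78, adjusted p 0.0725). In that fit the medians were 0.76 for PPAR-alpha targets, 0.40 for mitochondrial and 0.22 for peroxisomal beta-oxidation, against 0.92, 0.67 and 0.41 without the covariate. With the haemoglobin genes left out before scaling the same 3 genes were called.

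**Figure D4:**
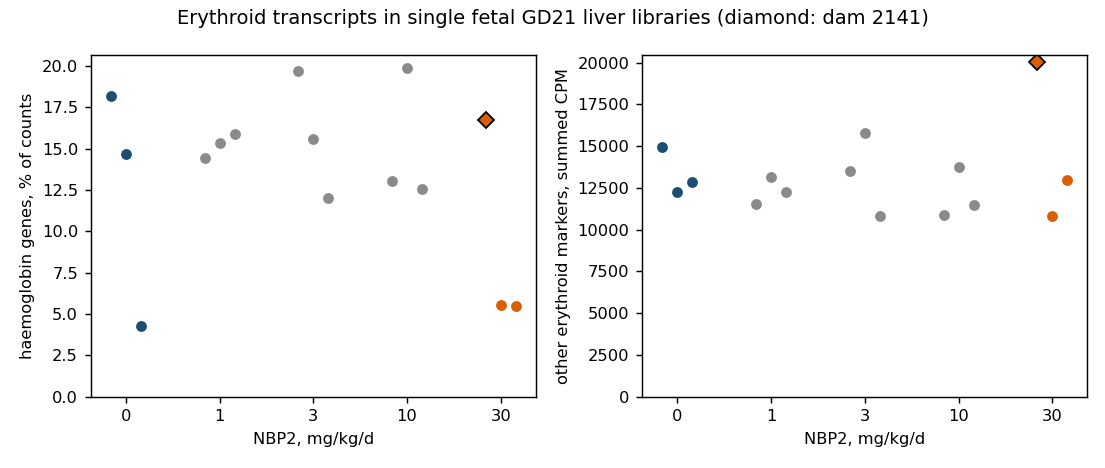
Share of the counts taken by haemoglobin genes (left, %) and summed CPM of the other erythroid markers (right) in each of the 15 fetal GD21 libraries, by dose. Control 2131 (4.30%) and the fetuses of dams 2142 and 2143 (5.53% and 5.47%) lie below all others on the left. On the right the fetus of dam 2142 (10789 CPM) is the lowest and the fetus of dam 2141 (20014 CPM) the highest, and control 2131 (12864 CPM) lies among the other libraries.

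Markers of other cell types were checked in the same libraries. Neutrophil and myeloid progenitor markers had a median of −0.75, with 15 of 16 tested values negative and none called by either tool. Without the fetus of dam 2141, whose summed level was the lowest, the median was −0.57, or −0.47 over all members tested in that fit. Their summed level was 1680 to 2655 CPM in controls and 815 to 1857 CPM in treated fetuses. Lymphoid markers (11 tested, median −0.55, and −0.33 without control 2129 or −0.19 without the fetus of dam 2141) summed to 46.9 to 62.1 CPM and 40.8 to 52.5 CPM, and macrophage markers (14 tested, median 0.10, −0.12 to 0.30 with 1 library left out) to 886 to 1097 CPM and 924 to 1190 CPM. Muscle markers summed to 603 to 1113 CPM in controls and 237 to 744 CPM in treated fetuses. Pancreas, gut, and adrenal and kidney markers summed to at most 42.9 CPM in each of the 6. In bulk liver, fewer cells of a type and less RNA per cell cannot be told apart.

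Lower doses shared the controls with the comparison above, and no gene was called by edgeR at 10, 3 or 1 mg/kg/d (0% of 10244 each). At an unadjusted p under 0.05 there were 388, 474 and 63 genes, and DESeq2 called 11, 1 and 0. Fabp1 had 1682, 1351 and 1362 CPM at 10 mg/kg/d, 766, 395 and 690 CPM at 3 mg/kg/d and 461, 654 and 329 CPM at 1 mg/kg/d. Acot1 had 28.5, 72.2 and 22.7 CPM at 10 mg/kg/d, 9.11, 7.87 and 5.77 CPM at 3 mg/kg/d and 2.00, 1.96 and 4.06 CPM at 1 mg/kg/d. Both genes thus had every library of the 10 mg/kg/d group above all controls, and for each the fetus of dam 2141 at 30 mg/kg/d had less than every fetus at 10 mg/kg/d. Ehhadh had 55.0, 48.2 and 35.0 CPM at 10 mg/kg/d, close to the 50.0 CPM of the fetus of dam 2141, and 12.8 to 22.2 CPM at the lower doses. Lect2, lower at 30 mg/kg/d, had 97.6 to 110.4 CPM at 10 mg/kg/d, 105 to 109.9 CPM at 3 mg/kg/d and 125 to 137 CPM at 1 mg/kg/d, each range below its controls. At 1 mg/kg/d the margin was narrow, with 137.5 CPM in the highest library and 138.0 CPM in the lowest control. The log2 fold change at that dose was −0.094 ± 0.19. The PPAR-alpha list had library medians of 0.63, 0.53 and 0.64 at 10 mg/kg/d. Among the lower doses, the fetal library from dam 2135 (given 3 mg/kg/d) had the lowest total, 3184903 counts, and 9130 genes with a count above 0 against 12665 or more in the other 14. Without it edgeR called 4 genes at 30 mg/kg/d, the fourth being Scd.

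Whether the fetal response at 30 mg/kg/d changed with age was tested against the fetal GD18 groups (dams dosed from GD14, 4 treated and 6 control libraries). No gene of 10885 was called for a difference (0%), 271 had an unadjusted p under 0.05, and DESeq2 called 1 (Nfs1). Age and study block cannot be told apart in this test. Nfs1 ranged from 0.191 to 71.8 CPM within the GD18 controls and from 0 to 67.0 CPM in GD18 fetuses at 30 mg/kg/d. Fabp1 was at 44.8 to 98.5 CPM in GD18 controls and 291 to 438 CPM at 30 mg/kg/d, a log2 fold change of 2.46 ± 0.27 against 3.07 at GD21 (difference 0.61 ± 0.43, edgeR adjusted p 1). Acot1 was at 1.15 to 3.88 CPM and 8.03 to 21.5 CPM, a log2 fold change of 2.61 ± 0.50 (difference 3.16 ± 0.83, edgeR adjusted p 1, unadjusted 0.00155). Cyp4a1 was at 0 to 1.41 CPM in all 10 GD18 libraries, and its difference was 4.14 ± 1.46 (edgeR adjusted p 1). Without the fetus of dam 2141 there were 5 calls, all with a larger response at GD21 and an adjusted p of 0.0388, among them Acot1 (difference 3.66), Cyp4a1 (4.69), Ppp1r3g (2.86) and Gba3 (2.64), the last named after its values were seen. Of the genes with the smallest unadjusted p for this difference, Apoa2 (0.95 ± 0.26), Pgrmc2 (1.05 ± 0.34), LOC100911991 (1.48 ± 0.46) and AABR07013425.1 (3.99 ± 1.07) had higher log2 fold changes at GD21. Slc39a14 (−1.13 ± 0.28), Rbm47 (−1.32 ± 0.35), Gstm7 (−1.37 ± 0.40), Fbxo25 (−0.92 ± 0.27) and LOC100911256 (−1.03 ± 0.26) had lower ones, and the edgeR adjusted p was 1 for all of these. For LOC100911991 and AABR07013425.1 the difference came mostly from GD18, with log2 fold changes of −1.38 and −3.24 there. At GD21 they were 0.12 and 0.76. AABR07013425.1 ranged from 0.646 to 110 CPM within the GD18 controls.

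The dams of the same 6 fetuses were the other point of comparison, and 1 of 10167 genes (0.00984%) differed in response between fetus and dam. At an unadjusted p under 0.05 there were 268. The gene was Gsta2, with log2 fold changes of −1.53 ± 0.50 in fetuses and 1.57 ± 0.21 in dams, with 204 to 275 CPM in control dams and 681 to 777 CPM in treated dams. The difference was −3.12 ± 0.31 (edgeR adjusted p 0.00127), and with dam as a replicate block it was −3.11 with an adjusted p of 0.061, so that no gene was called. None of the Gsta2 values in the 15 fetal libraries was whole, so its share of reads from near copies is uncertain. Fabp1 had a difference of 2.81 ± 0.50 (edgeR adjusted p 0.38, DESeq2 adjusted p 6.62e-06, and 0.00208 in edgeR without the fetus of dam 2141). In dams it stayed between 4656 and 7485 CPM in all 6 libraries (0.26 ± 0.35), above every fetus. Acot1 and Ehhadh had dam log2 fold changes of 4.98 ± 1.11 and 2.46 ± 0.59, and differences of 0.80 ± 1.5 and 1.65 ± 0.81 (edgeR adjusted p 1 for both). Ephx1, at 2.09 ± 0.27 in dams, had a difference of −1.83 ± 0.37 (edgeR adjusted p 0.418, DESeq2 adjusted p 0.012).

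**Figure D5:**
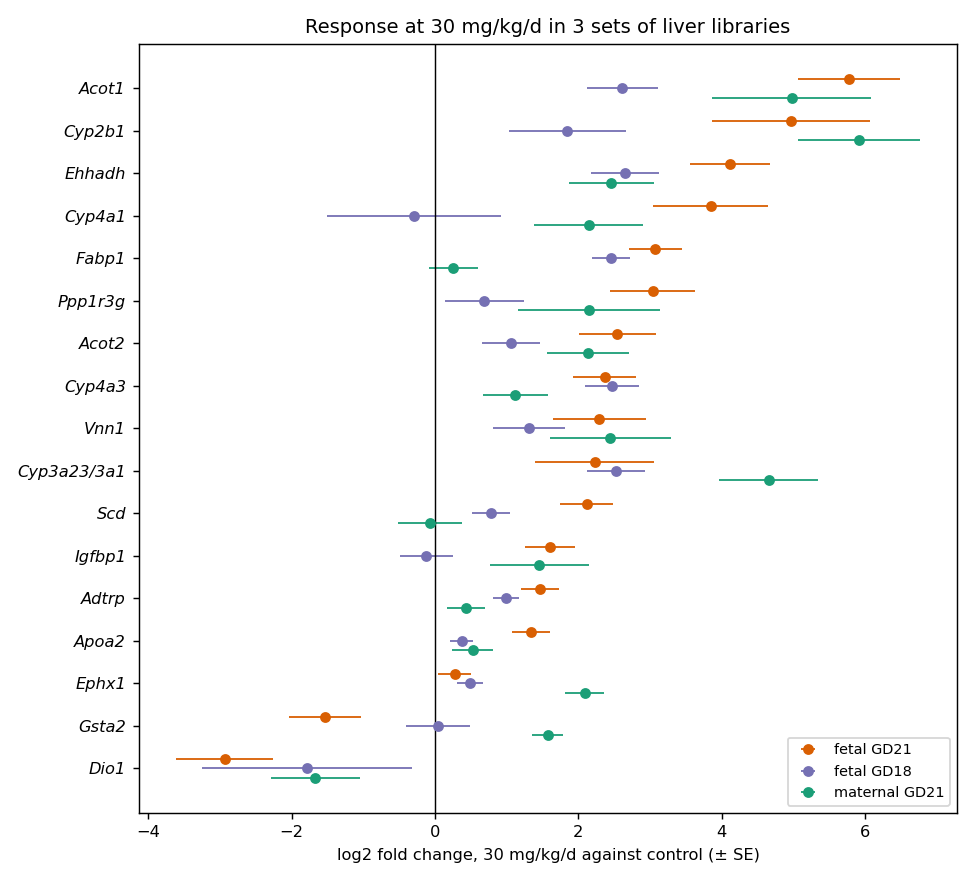
Log2 fold changes (± SE) at 30 mg/kg/d against control for 17 named genes in fetal GD21, fetal GD18 and maternal GD21 liver. Fabp1 lies at 3.07 and 2.46 in fetal liver and 0.26 in maternal liver, and Gsta2 at −1.53 in fetal and 1.57 in maternal GD21 liver.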

How the data were processed

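The TempO-Seq probe set covers 21119 genes and was read with 50-base single reads of liver RNA, per the labels' protocols. The authors deposited estimated counts per gene, and the submitters' processing notes name STAR 2.7.3a, Partek and the build rn6. Of the values in the fetal GD21 libraries 6.62% were not whole, and they were rounded before testing, where whole counts had been planned for. The deposited normalized table was not used. All 90 libraries matched a labelled sample. Total counts ran from 5666947 to 6998829 in the 6 libraries compared, and replicates differed by more than sampling noise.

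The main test was edgeR 4.0.16 (quasi-likelihood F test, TMM, filterByExpr with a minimum count of 10, two-sided, Benjamini-Hochberg threshold 0.05) in R 4.3.3, on all 15 fetal GD21 libraries in 5 dose groups, with the contrast of 30 mg/kg/d with control. DESeq2 1.42.0 was an alternative. Standard errors were taken from the F statistic (absolute log2 fold change over its root), with a prior count of 0.125. The response was set against fetal GD18 (16 libraries, with a term for study block) and against the dams (12 libraries) by interaction terms in edgeR. The main fit was also run on simulated counts, drawn independently for each gene around its mean, with set fold changes. Those counts held no outlying library and no shared shift in haemoglobin. The run therefore cannot show how such features act on the calls. Levels are CPM without TMM. Alternatives covered scaling, the filter, the libraries fitted, leaving out each library, and haemoglobin share, receptor share and fetal sex as covariates.

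Dam and fetus share a dam number in the labels. Deviations from the group means within the 6 pairs correlated at −0.0082 to 0.135 (median 0.11), and dam as a replicate block was the alternative.

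Named genes were those called with the largest changes and an average log2 CPM of at least 3, a fixed list of 29, called genes of each gene list, and, where nothing was called, the 5 of smallest p in each direction. Genes called by DESeq2 were added after their values were seen. The comparison, its members and the 41 gene lists (755 of 878 entries in the file, 5 by synonym) were chosen with earlier results of these data known. Promoter windows are from RefSeq (GRCr8) and matched 31 of 50 named genes. Results of some genes are not reported here.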

Additional observations from a re-analysis of the deposited data

Results flagged for a closer look

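Gsta2 was the gene whose response at 30 mg/kg/d differed between fetus and dam by the test of the difference itself (−3.12 on the log2 scale, edgeR adjusted p 0.00127). It was lower in 3 of 3 treated fetuses and higher in 3 of 3 treated dams than in every control of the same stage. With dam as a replicate block the difference was −3.11 with an adjusted p of 0.061.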

How the results depend on the processing

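The 3 genes called at 30 mg/kg/d were also the count under RLE scaling, with haemoglobin genes left out, under a stricter filter, and with receptor share or fetal sex as a covariate. The count was 66 (39 higher, 27 lower) with no filter on low counts, 26 with DESeq2 and 0 with the control and 30 mg/kg/d libraries alone. Leaving out 1 library in turn gave 0 to 20, with 0 without control 2129 or 2130, 7 without control 2131 and 20 without the fetus of dam 2141. In fits chosen after seeing the data it was 0 without 2129 and 2135 together, and 7 with haemoglobin share as a covariate and 2135 left out. Across all settings the log2 fold changes were 2.79 to 3.39 for Fabp1, 5.29 to 6.27 for Acot1 and 3.38 to 4.59 for Ehhadh. The difference from fetal GD18 had 0 calls, 1 with DESeq2 and 0 to 5 when leaving out a library. The difference from the dam had 1 call, 60 with no filter (17 higher, 43 lower), 12 with DESeq2, 0 with dam as a replicate block and 1 to 3 when leaving out a library. Under that block the Acot1 difference was −0.091 against 0.80. Pygl, at 0.07, was −0.32 with haemoglobin share, −0.016 with receptor share and −0.20 with fetal sex as a covariate, −0.11 without 2129 and 2135, −0.33 with haemoglobin share and 2135 left out, and −0.20 to 0.46 when leaving out a library. Slc4a1, at 0.04, was −0.26 to 0.26 when leaving out a library. The haemoglobin difference of −3.15 percentage points went with 1244.7 CPM more of the other erythroid markers, and was −7.19 to −0.239 when leaving out a library, an alternative also chosen after seeing the data. The cause of these shifts was not tested. With 3 libraries a group, Cyp4a1 at 3.85 ± 0.80 had an edgeR adjusted p of 0.185. The medians of gene lists with 1 library left out were added after seeing the data.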

Other observations

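Nfs1, a cysteine desulfurase of iron-sulfur cluster assembly, was read at 0 in all 3 controls, at 81.5 CPM in the fetus of dam 2141 and at 0 in the other treated fetuses. It was at 119, 0 and 108 CPM in the 3 libraries at 10 mg/kg/d. The 6 libraries at 1 and 3 mg/kg/d had at most 0.315 CPM. DESeq2 called the gene at 30 mg/kg/d while edgeR did not. In fetal GD18 controls Nfs1 ranged from 0.191 to 71.8 CPM (median 59.0), so high values were found without treatment too. In GD18 fetuses at 30 mg/kg/d it ranged from 0 to 67.0 CPM (median 0.081).

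Of the 16 neutrophil and myeloid progenitor markers tested, 3 lay below all controls in every treated fetus, against 3.46% of all genes tested, without a call by either tool. Defa5, an alpha-defensin, was at 70.9, 41.3 and 82.3 CPM in controls and 27.0, 26.5 and 23.8 CPM in treated fetuses. Cebpe, a transcription factor of granulocyte maturation, was at 6.99 to 9.29 CPM and 1.85 to 3.98 CPM. Fcnb, a ficolin of granulocyte precursors, was at 7.16 to 11.9 CPM and 3.24 to 6.04 CPM.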
